A study of Mus musculus with 2 samples.

Results

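The 39 genes described here encode the machinery that primes synaptic vesicles, senses calcium and fuses the vesicle with the membrane. They were taken as a list of symbols and not by a cut on their own values, though with earlier results of these data known. The list comprises 14 synaptotagmins (from *Syt1* to *Syt17*), *Doc2a* and *Doc2b*, *Cadps* and *Cadps2*, *Unc13a* to *Unc13c*, *Rims1* to *Rims4*, *Rph3a*, *Cplx1* to *Cplx3*, *Sv2a* to *Sv2c*, the SNARE genes *Snap25*, *Stx1a*, *Vamp1* and *Vamp2*, and the active zone scaffolds *Bsn*, *Pclo* and *Erc2*. All 39 symbols were found among the 31053 genes of the tables. Their levels were compared between projection neurons (PNs), GABAergic neurons and other cells in 2 libraries of single nuclei sorted from the mouse olfactory bulb (OB). Each library came from wild-type adults that carried the same agent, retroAAV-CAG-H2B-GFP, a retrogradely transported virus whose broadly active CAG promoter drives a green nuclear protein in any cell the virus enters. The virus was injected into the anterior olfactory nucleus (AON) for the first library and into the posterior piriform cortex (pPCx) for the second. The methods of the study give 1 female C57Bl/6 mouse for the pPCx library and do not describe the AON library, which is known from its labels as adult and of strain WT. Each site has 1 library, so that no test between sites or classes is possible, no p-value is given, and all intervals cover counting error alone.

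Release at a synapse runs through a fixed order of steps. RIM, Munc13 and the scaffold proteins hold a vesicle at the active zone and prime it, the SNARE proteins pull vesicle and plasma membrane together, complexin holds the partly zipped complex, and a synaptotagmin or Doc2 protein binds calcium and triggers fusion. Several of these proteins are encoded by small gene families whose members differ in calcium affinity and speed. In the OB, mitral and tufted cells, the PNs, release glutamate both from axons in olfactory cortex and from their dendrites in the bulb, where the spines of granule cells release GABA straight back at the same dendrodendritic synapse. Granule cells have no axon and periglomerular cells often none, so that their release is mostly dendritic. RNA in the nucleus carries no position of the release site, and the levels below belong to the cell as a whole.

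The AON library held 188 barcodes and the pPCx library 74, with 0 barcodes shared, and 102 and 63 of them had the 1000 or more genes asked for. A nucleus was called a PN when its unique molecular identifiers (UMIs) of *Slc17a7*, *Slc17a6*, *Tbx21* and *Cdhr1* together exceeded those of *Gad1*, *Gad2* and *Slc32a1*, and GABAergic when the reverse held with 3 or more UMIs. This gave 25 AON PNs (median 38129 UMIs), 47 AON GABAergic nuclei (26129 UMIs), 30 remaining AON nuclei (14336 UMIs) and 59 pPCx PNs (34306 UMIs). The pPCx library held only 2 GABAergic and 2 remaining nuclei, so that both groups of PNs were set against the GABAergic nuclei of the AON library. A list of 7 PN markers, which includes the rule's own genes, summed to 3129 counts per 1e+06 UMIs (CPM) in AON PNs, 3253 CPM in pPCx PNs, 66.9 CPM in GABAergic nuclei and 25 CPM in the remaining nuclei. The 47 GABAergic nuclei carried granule cell markers at 5260 CPM, with UMIs in all 47, and periglomerular markers at 67.7 CPM, with UMIs in 25. Immature neuron markers stood at 464 CPM, with UMIs in 45 nuclei and *Tubb3* at 0. The granule list includes *Meis2*, which is also on the GABAergic list, and sums of lists do not give the share of each cell kind. Of the remaining nuclei, 17 carried astrocyte markers and 8 oligodendrocyte markers at 10 or more UMIs. The AON PNs are uneven in 2 ways that touch the values below. A nucleus with 274993 UMIs supplied 24.6% of the class, and 8 of the 25 nuclei qualified on 1 or 2 excitatory UMIs and supplied 5.59%. Values without these nuclei are given beside the results they change most.

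To show the sequence at the start of genes on which the comparison of PNs with GABAergic nuclei turns, 4 members with wide differences and a single start in the RefSeq table of build GRCm38.p6 are printed as the 250 bases upstream of that start, 5′ to 3′ on the gene's own strand. Capitals mark a match to a motif searched for on both strands, which here occurs only in *Rims1*. The windows are chr1:22806159-22806408 (minus strand) for *Rims1*, chr7:107370540-107370789 (plus) for *Syt9*, chr13:96132578-96132827 (minus) for *Sv2c* and chr15:89841861-89842110 (minus) for *Syt10*.
Rims1: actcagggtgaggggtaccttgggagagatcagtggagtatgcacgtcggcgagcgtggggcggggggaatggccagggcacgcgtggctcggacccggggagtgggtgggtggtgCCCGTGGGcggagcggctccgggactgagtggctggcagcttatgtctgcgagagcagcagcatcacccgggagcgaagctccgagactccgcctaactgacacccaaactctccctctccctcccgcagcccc
Syt9: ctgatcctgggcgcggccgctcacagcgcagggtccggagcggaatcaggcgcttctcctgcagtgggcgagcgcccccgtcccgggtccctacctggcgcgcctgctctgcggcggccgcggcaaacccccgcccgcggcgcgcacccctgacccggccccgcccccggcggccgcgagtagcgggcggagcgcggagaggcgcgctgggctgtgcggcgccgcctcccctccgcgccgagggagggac
Sv2c: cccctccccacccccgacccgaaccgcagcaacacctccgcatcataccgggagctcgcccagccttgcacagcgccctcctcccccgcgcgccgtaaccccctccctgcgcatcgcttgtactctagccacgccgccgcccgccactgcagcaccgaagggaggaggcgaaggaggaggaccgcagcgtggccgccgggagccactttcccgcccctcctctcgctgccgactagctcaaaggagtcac
Syt10: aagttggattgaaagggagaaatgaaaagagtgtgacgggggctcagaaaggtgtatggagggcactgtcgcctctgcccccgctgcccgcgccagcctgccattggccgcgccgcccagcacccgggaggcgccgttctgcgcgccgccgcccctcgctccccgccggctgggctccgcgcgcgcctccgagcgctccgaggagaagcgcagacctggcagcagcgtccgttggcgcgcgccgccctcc
*Rims1* and *Syt9* were higher in PNs, *Sv2c* and *Syt10* in GABAergic nuclei, and all 4 windows were rich in G and C, with 68% G or C in *Rims1* and 80.4% in *Syt9*. Of the 39 members, 27 had an entry in the table, with 36 windows in all. The core letters bound by Ebf factors, CCCNNGGG, stood in 11.8% of all 32851 windows of this length and in 4 windows of members, those of *Cplx2*, *Rims1*, *Stx1a* and *Unc13b*. The T-box letters AGGTGTGA stood in 1.12% of all windows and in 0 of the 36, and the homeodomain letters TAATTA in 4.84% and in 1, that of *Syt6*. A match describes these letters alone.

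The release genes were abundant in neurons. The 39 members together made up 23497 CPM in AON PNs, 18190 CPM in pPCx PNs and 10709 CPM in GABAergic nuclei, against 2066 CPM in the remaining nuclei. In AON PNs the highest level belonged to *Erc2*, the scaffold also called CAST, at 5035 CPM (95% counting interval of its ratio to GABAergic nuclei 4.86 to 5.5), followed by *Syt1* at 4764 CPM and *Rims1* at 4648 CPM. Scaled by exon length, the order in AON PNs was *Rims1* with 631 CPM per exon kb, *Syt1* with 571 and *Erc2* with 518, and in GABAergic nuclei *Syt1* led with 407 CPM per exon kb, followed by *Snap25* with 235. At the other end *Doc2a* and *Cplx3*, the latter known from ribbon synapses, had 5 or fewer UMIs in each class, and nothing about their differences can be said at this depth.

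**Figure D1:**
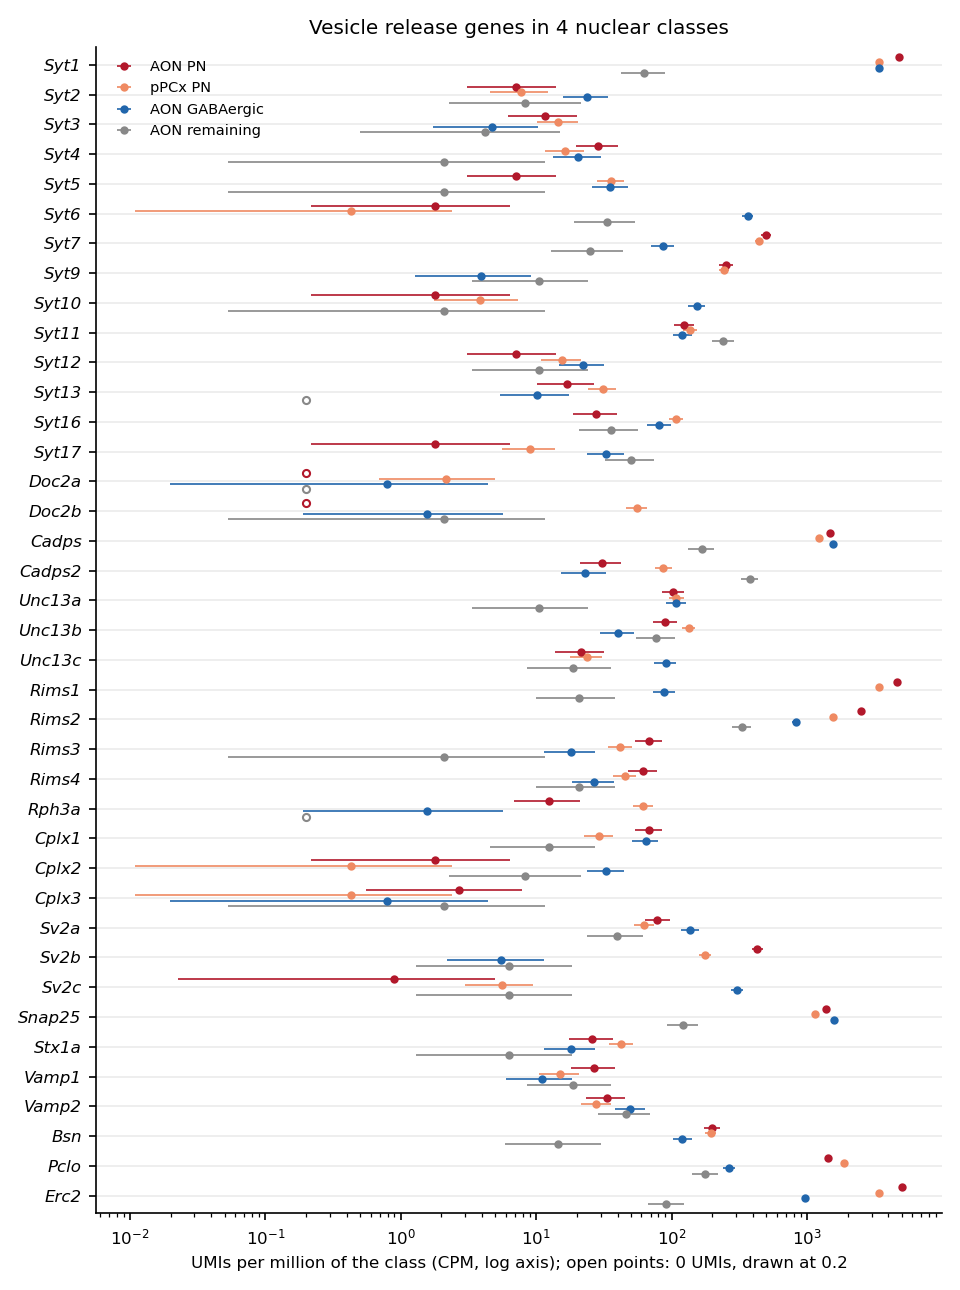
Level of each of the 39 members in AON PNs, pPCx PNs, AON GABAergic nuclei and remaining AON nuclei, in CPM on a log axis, with 95% Poisson intervals of the summed UMIs as lines and classes at 0 UMIs as open points. *Syt1*, *Cadps* and *Snap25* lie close together in the 3 neuronal classes, whereas *Syt6*, *Sv2b* and *Sv2c* are spread over more than a 30-fold range.

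To ask which release genes separate PNs from GABAergic neurons, summed UMIs were scaled to CPM and a gene was called different at 2-fold or more, among genes with 20 or more UMIs in the sums compared. Between AON PNs and AON GABAergic nuclei, 34 members could be compared, of which 11 were at least 2-fold higher in PNs (15.2% of all 9808 genes were) and 10 at least 2-fold lower (16.1% of all genes). Between pPCx PNs and the same GABAergic nuclei, 37 members could be compared, with 14 higher (17.8% of all 11501 genes) and 9 lower (14.1% of all genes). The shares of members called, 32.4% higher and 29.4% lower in the AON comparison, thus lay above those of all genes in both directions. The median log2 ratio of the members was 0.24 and 0.41, beside -0.06 and 0.04 over all genes. Both comparisons use the same GABAergic nuclei, so they are not independent of each other. The members higher in both groups of PNs were *Syt7*, *Syt9*, *Unc13b*, *Rims1*, *Rims3*, *Sv2b*, *Pclo* and *Erc2*, and those lower in both were *Syt2*, *Syt6*, *Syt10*, *Syt17*, *Unc13c*, *Cplx2* and *Sv2c*. The lower calls of *Syt17*, which the counts above include, rested on 1 GABAergic nucleus with 40 of the class's 42 UMIs. Without that nucleus the log2 ratio of *Syt17* was 0.13 for AON PNs and 2.17 for pPCx PNs. *Rims2*, *Rims4* and *Vamp1* passed 2-fold higher in the AON comparison and not in the pPCx one, and *Syt13*, *Cadps2* and *Stx1a* the reverse. *Syt3*, *Doc2b* and *Rph3a* passed in the pPCx comparison and had too few UMIs to be compared in the AON one, where *Rph3a* had 14 UMIs against 2 and *Syt3* 13 against 6. The summed levels of 5 members lay within 1.5-fold among AON PNs, pPCx PNs and GABAergic nuclei, namely *Syt1*, *Syt11*, *Cadps*, *Unc13a* and *Snap25*. With equal weight per nucleus *Syt11* left that range, with a log2 ratio of 0.68 in AON PNs over GABAergic nuclei, as did *Cadps*, with -0.91 in pPCx over AON PNs.

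**Figure D2:**
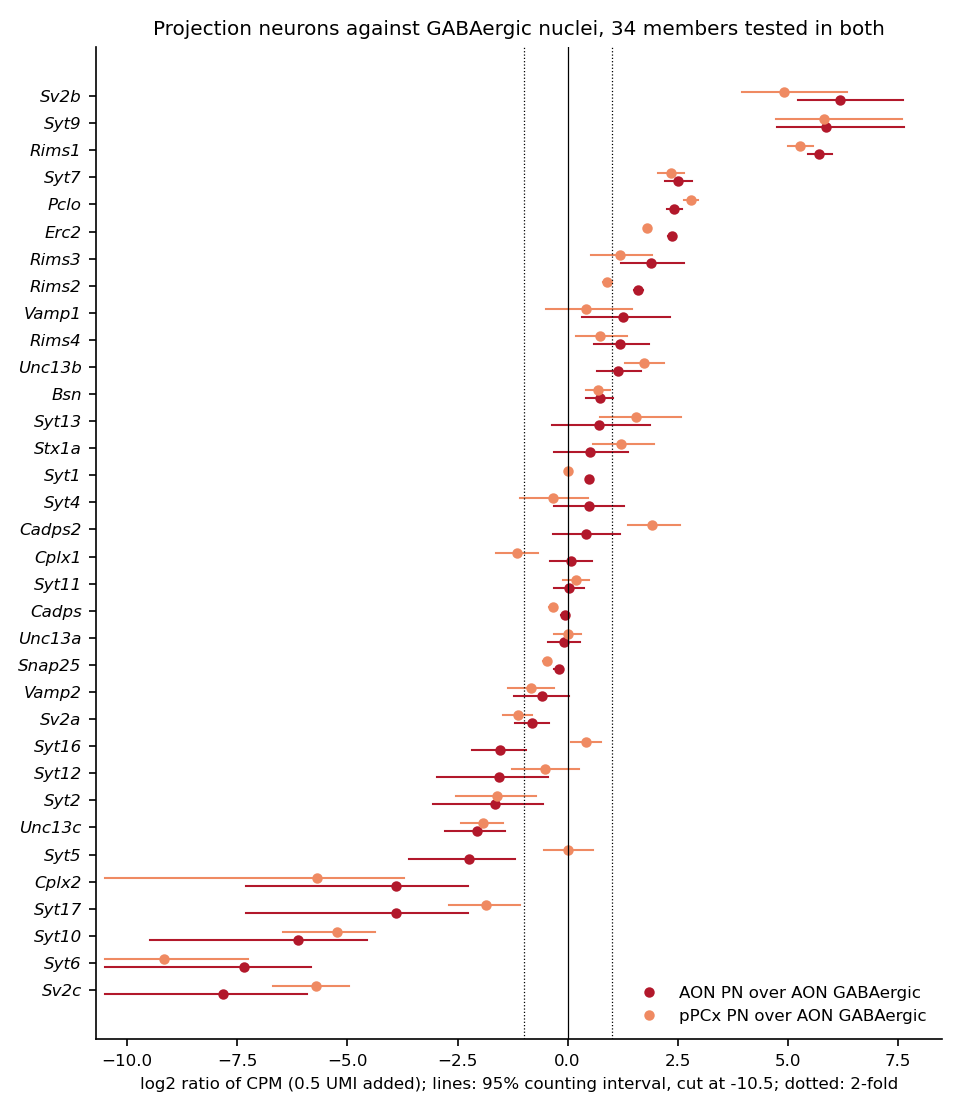
Log2 ratio of CPM in AON PNs (dark red) and pPCx PNs (orange) over AON GABAergic nuclei for the 34 members compared in both, ordered by the AON ratio, with 95% counting intervals as lines (cut at the axis edge) and 2-fold marked by dotted lines. *Sv2b*, *Syt9* and *Rims1* stand at the upper end and *Sv2c*, *Syt6* and *Syt10* at the lower end for both groups of PNs.

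The calcium sensors differed in which minor synaptotagmin accompanied *Syt1*. *Syt1*, the sensor of fast synchronous release at forebrain synapses, was at 4764 CPM in AON PNs, 3395 CPM in pPCx PNs and 3394 CPM in GABAergic nuclei. Per nucleus it ran from 585 to 8014 CPM in pPCx PNs with a median of 3170 CPM, and had a median of 3272 CPM in GABAergic nuclei, so that these classes overlapped throughout. It made up 82.9% of all synaptotagmin UMIs in AON PNs, 76.2% in pPCx PNs and 77.9% in GABAergic nuclei. With every nucleus given equal weight the log2 ratio of AON PNs over GABAergic nuclei moved from 0.49 to -0.11, and no direction is given for it.

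*Syt7*, a high-affinity sensor linked to slow, asynchronous release and vesicle replenishment, had UMIs in all 59 pPCx PNs, at 118 to 1228 CPM, and in 32 of 47 GABAergic nuclei, at a median of 50.2 CPM. Its level was 496 CPM in AON PNs and 440 CPM in pPCx PNs against 86.5 CPM in GABAergic nuclei, 5.73-fold (95% interval 4.66 to 7.1) and 5.08-fold (4.17 to 6.24) higher. *Syt9*, a fast sensor related to *Syt1*, was found in 15 of 25 AON PNs, 57 of 59 pPCx PNs and 4 of 47 GABAergic nuclei. All 15 of those AON PNs were among the 17 with 3 or more excitatory UMIs, where the median nucleus had 241 CPM. Summed, *Syt9* stood at 252 CPM and 244 CPM in the 2 groups of PNs and at 3.93 CPM (5 UMIs) in GABAergic nuclei, 64.2-fold (27.2 to 199) and 62-fold (26.4 to 192) higher. After each nucleus had been thinned to 3000 UMIs, 32% of AON PNs, 49.2% of pPCx PNs and 2.13% of GABAergic nuclei kept a UMI of *Syt9*. Of the remaining nuclei 3.45% did, which is 1 of 29, and the part of free RNA in these shares was not tested.

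*Syt6* and *Syt10* marked the GABAergic nuclei in the same way. *Syt6*, a synaptotagmin best known from the acrosome of sperm, had 466 UMIs in 40 of 47 GABAergic nuclei, with a median of 241 CPM and a highest nucleus of 1635 CPM, 2 UMIs in the 25 AON PNs and 1 UMI in the 59 pPCx PNs. The AON ratio came to 205-fold lower in PNs (56.4 to 1696). *Syt10*, tied to the secretion of an insulin-like growth factor in bulb neurons, had 196 UMIs in 24 of 47 GABAergic nuclei, up to 1937 CPM, and 2 and 9 UMIs in the AON and pPCx PNs, 86.2-fold (23.5 to 716) and 39.9-fold (20.6 to 88.5) lower. Both genes occurred together in 23 of 47 GABAergic nuclei, *Syt6* alone in 17 and *Syt10* alone in 1. After thinning to 3000 UMIs, 44.7% of GABAergic nuclei kept a UMI of *Syt6* and 23.4% one of *Syt10*, against 4% and 0% of AON PNs and 6.9% and 3.45% of the remaining nuclei. The 2 *Syt10* UMIs of AON PNs lay in 1 nucleus with 1 or 2 excitatory UMIs, and the 17 nuclei with more had 0.

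By UMIs, the second synaptotagmin after *Syt1* was *Syt7* in AON PNs (554 UMIs) and pPCx PNs (1024), before *Syt9* (282 and 568). In GABAergic nuclei it was *Syt6* (466 UMIs), before *Syt10* (196). Scaled by exon length, *Syt7* stood at 66.2 CPM per exon kb in AON PNs with *Syt9* close behind (63.4). In pPCx PNs this scaling put *Syt9* (61.3) just before *Syt7* (58.7), and in GABAergic nuclei *Syt10* (83.6) before *Syt6* (62.9). In both of these classes the scaled order reverses that by UMIs. A molecule is counted once whatever its length, so no rank between these genes is given. *Syt11*, which does not bind calcium, stood at 123, 137 and 120 CPM in AON PNs, pPCx PNs and GABAergic nuclei and at 240 CPM in the remaining nuclei, where it made up 49.4% of synaptotagmin UMIs. The other synaptotagmins were low. *Syt2*, the fast sensor of hindbrain synapses, was at 7.16 and 7.73 CPM in the groups of PNs and 23.6 CPM in GABAergic nuclei, and *Syt12* at 7.16, 15.5 and 22 CPM. *Syt5* and *Syt16* were lower in AON PNs than in GABAergic nuclei, at 7.16 against 35.4 CPM and at 27.7 against 81 CPM. In pPCx PNs they were within 1.5-fold of the GABAergic level, with 35.7 CPM of *Syt5* and 108 CPM of *Syt16*. The call of *Syt17* rested on 1 GABAergic nucleus, which had 40 of the class's 42 UMIs together with 17 UMIs of *Th*, the dopamine synthesis enzyme of a periglomerular type. Without that nucleus the log2 ratio of *Syt17* went from -3.9 to 0.13 for AON PNs and from -1.86 to 2.17 for pPCx PNs.

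Among priming factors, the summed shares of the Munc13 family differed between classes, and *Cadps* changed little. *Unc13a*, the main priming factor of forebrain synapses, was at 103, 109 and 109 CPM in AON PNs, pPCx PNs and GABAergic nuclei. *Unc13b* was at 89.5 CPM (16 of 25 nuclei) and 134 CPM (57 of 59 nuclei) in PNs and at 40.1 CPM in GABAergic nuclei (19 of 47), 2.23-fold (1.58 to 3.19) and 3.33-fold (2.47 to 4.57) higher. With equal weight per nucleus the AON log2 ratio of *Unc13b* went from 1.15 to 0.74, under the 2-fold line. *Unc13c*, known from cerebellar granule cells, went the other way, with 21.5 and 23.6 CPM in PNs against 90.5 CPM in GABAergic nuclei. In GABAergic nuclei 17 of 47 had a UMI and 1 nucleus held 35 of 115. Among AON PNs, 9 of the 17 nuclei with 3 or more excitatory UMIs and 2 of the other 8 had one. After thinning to 3000 UMIs, 8% of AON PNs, 5.08% of pPCx PNs and 17% of GABAergic nuclei kept a UMI of *Unc13c*. At 6000 UMIs these shares were close, at 15%, 15.3% and 17.4%. Within the family, *Unc13b* took 41.8% of UMIs in AON PNs (35.5% to 48.4%) and 50.2% in pPCx PNs (46.2% to 54.3%), against 16.8% in GABAergic nuclei (12.8% to 21.5%). *Unc13c* took 10%, 8.89% and 37.8%. *Cadps*, a priming factor of dense-core vesicles, was found in all 59 pPCx PNs (498 to 1826 CPM) and all 47 GABAergic nuclei (352 to 2991 CPM), with medians of 1114 and 1482 CPM. *Cadps2*, which the study names a marker of its mitral type M3, was at 30.4, 87.2 and 22.8 CPM in AON PNs, pPCx PNs and GABAergic nuclei. In pPCx PNs it was 3.82-fold (2.58 to 5.85) above GABAergic nuclei and 2.87-fold (1.99 to 4.25) above AON PNs. Of its 203 UMIs in pPCx PNs, 42 lay in 1 nucleus.

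Of the active zone genes, *Rims1* separated the classes most widely. RIM proteins tether vesicles and calcium channels at the release site. *Rims1* was found in all 59 pPCx PNs, at 727 to 6042 CPM with a median of 3161 CPM, and in 21 of 25 AON PNs, with a median of 1951 CPM and a highest nucleus of 15526 CPM. In GABAergic nuclei 19 of 47 had a UMI, the median was 0 and the highest nucleus reached 881 CPM. All 17 AON PNs with 3 or more excitatory UMIs had *Rims1*, at 553 CPM or more, so that the lowest of them overlapped the highest GABAergic nucleus. Summed, the levels of 4648 and 3418 CPM were 52.8-fold (43.8 to 64.2) and 38.8-fold (32.2 to 47.2) above the 88.1 CPM of GABAergic nuclei. After thinning to 3000 UMIs, *Rims1* was seen in 80% of AON PNs, 100% of pPCx PNs, 12.8% of GABAergic nuclei and 10.3% of the remaining nuclei. At 6000 UMIs the last 2 shares were 26.1% and 7.14%, and the summed level in GABAergic nuclei was 4.23-fold (2.22 to 9.06) above the 20.8 CPM of the remaining nuclei.

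*Rims2* was by contrast present in all 47 GABAergic nuclei, at 189 to 3343 CPM with a median of 710 CPM, and was the main RIM gene there, with 86.2% of the family's UMIs (84.1% to 88.1%) against 9.16% for *Rims1*. In PNs *Rims1* took 63.8% (AON, 62.7% to 64.8%) and 67.7% (pPCx, 66.8% to 68.5%). More UMIs of *Rims1* than of *Rims2* were counted in 56 of 59 pPCx PNs and in 17 of 25 AON PNs, and more of *Rims2* in 44 of 47 GABAergic nuclei. The AON PNs hold 2 shallow nuclei with extreme *Rims2*. The one had 298 *Rims2* UMIs among 7675 (38827 CPM) with 1 excitatory UMI, the other 24861 CPM among 4505 UMIs with 3. With equal weight per nucleus the share of *Rims1* in AON PNs went to 45.4% and that of *Rims2* to 53.1%, and among nuclei with 3 or more excitatory UMIs *Rims1* took 66.7%. *Rims2* itself was 3.03-fold (2.82 to 3.25) higher in AON PNs than in GABAergic nuclei and 1.86-fold (1.74 to 2) in pPCx PNs. The short forms *Rims3* and *Rims4*, which lack the domain that binds vesicles, were at 68 and 61.8 CPM in AON PNs, 41.7 and 45.1 CPM in pPCx PNs and 18.1 and 26.8 CPM in GABAergic nuclei. The AON call of *Rims4* was lost with equal weight per nucleus, where its log2 ratio went from 1.2 to 0.79.

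Of the scaffolds, *Pclo* and *Erc2* were higher in both groups of PNs and *Bsn* did not pass 2-fold. *Pclo* (Piccolo) was at 1435 CPM in AON PNs, 1865 CPM in pPCx PNs and 267 CPM in GABAergic nuclei, 5.38-fold (4.78 to 6.07) and 6.99-fold (6.26 to 7.83) higher. The lowest of the 59 pPCx PNs had 351 CPM of *Pclo* and the median 1825 CPM, whereas the highest GABAergic nucleus had 670 CPM. *Erc2* was at 5035, 3423 and 975 CPM, 5.17-fold and 3.51-fold higher in PNs, with 1216 to 7146 CPM per nucleus in pPCx PNs and up to 2973 CPM in GABAergic nuclei. *Bsn* (Bassoon), which shares functions with Piccolo, differed less, at 200, 194 and 120 CPM, 1.66-fold (1.34 to 2.05) and 1.61-fold (1.34 to 1.95) higher. With equal weight per nucleus the AON log2 ratio of *Bsn* went from 0.73 to -0.04, so that its direction in AON PNs is not given.

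The vesicle glycoproteins of the Sv2 family showed the clearest change of isoform. *Sv2b* had 480 UMIs in 17 of 25 AON PNs and 413 UMIs in 43 of 59 pPCx PNs, against 7 UMIs in 6 of 47 GABAergic nuclei. *Sv2c*, which is enriched in the basal ganglia, had 385 UMIs in 30 of 47 GABAergic nuclei (median 101 CPM, highest 1415 CPM), against 1 UMI in AON PNs and 13 in pPCx PNs. In levels, *Sv2b* stood at 430, 177 and 5.51 CPM, 78-fold (37.6 to 195) and 32.2-fold (15.5 to 80.6) higher in PNs, and *Sv2c* at 0.89, 5.58 and 303 CPM, 54.2-fold (31.4 to 103) lower in pPCx PNs and 338-fold (60.4 to 13402) lower in AON PNs, where it rests on 1 UMI. Of the family's UMIs, *Sv2b* made up 84.4% in AON PNs (81.1% to 87.2%), 72.2% in pPCx PNs (68.3% to 75.8%) and 1.23% in GABAergic nuclei (0.5% to 2.53%), while *Sv2c* made up 0.18%, 2.27% and 67.9%. The deepest AON nucleus held 228 of the 480 *Sv2b* UMIs, and without it the *Sv2b* share was 75.4%. Both *Sv2b* and *Sv2c* had UMIs in 0 of 25 AON PNs, 9 of 59 pPCx PNs and 4 of 47 GABAergic nuclei. Of the 12 pPCx PNs with *Sv2c*, 9 thus also had *Sv2b*, and of the 6 GABAergic nuclei with *Sv2b*, 4 also had *Sv2c*. *Sv2a*, the form found in nearly all neurons, was at 78.8, 62.7 and 138 CPM, 2.19-fold lower in pPCx PNs than in GABAergic nuclei (1.75 to 2.75). After thinning to 3000 UMIs, *Sv2b* was seen in 44% of AON PNs, 25.4% of pPCx PNs, 2.13% of GABAergic and 0% of remaining nuclei, and *Sv2c* in 40.4% of GABAergic nuclei, 4% of AON PNs and 0% of pPCx PNs and remaining nuclei.

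**Figure D3:**
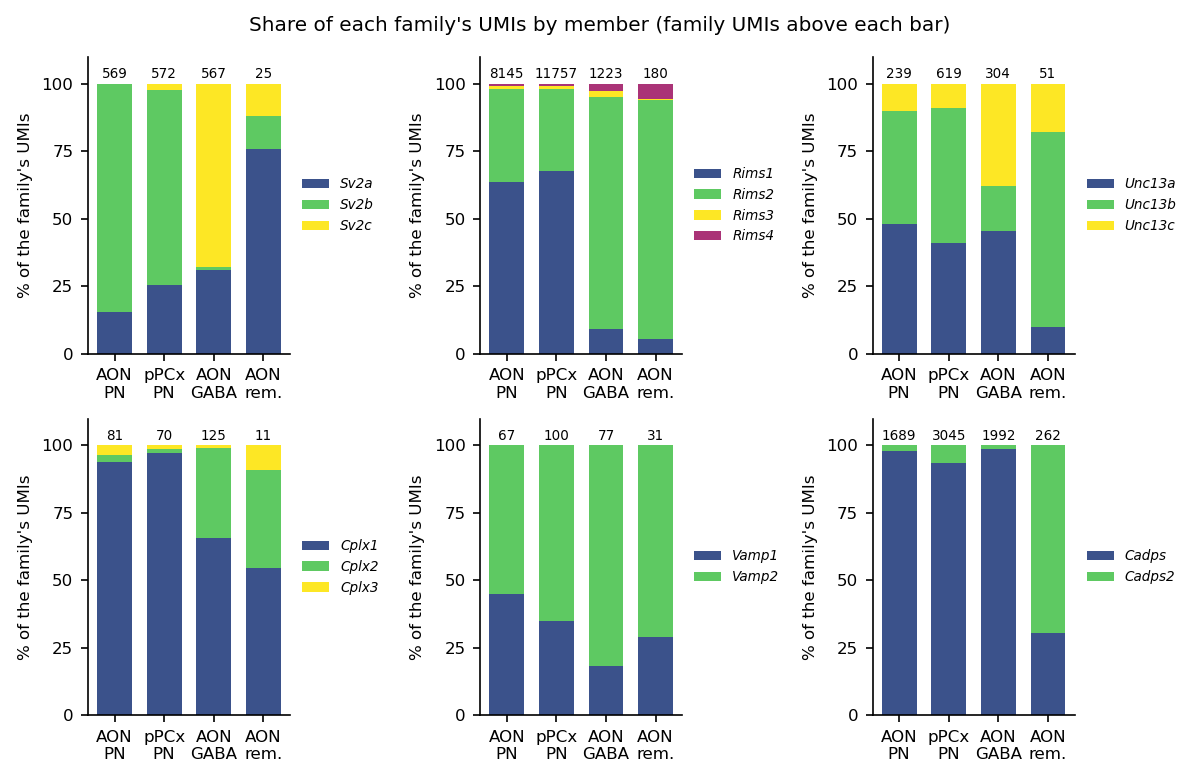
Share of each family's UMIs taken by its members in AON PNs, pPCx PNs, AON GABAergic nuclei and remaining AON nuclei, for the Sv2, RIM, Munc13, complexin, VAMP and CAPS families, with the family's UMIs above each bar. *Sv2b* gives way to *Sv2c* and *Rims1* to *Rims2* from PNs to GABAergic nuclei, and *Cadps2* fills 69.5% of the CAPS bar in the remaining nuclei.

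**Figure D4:**
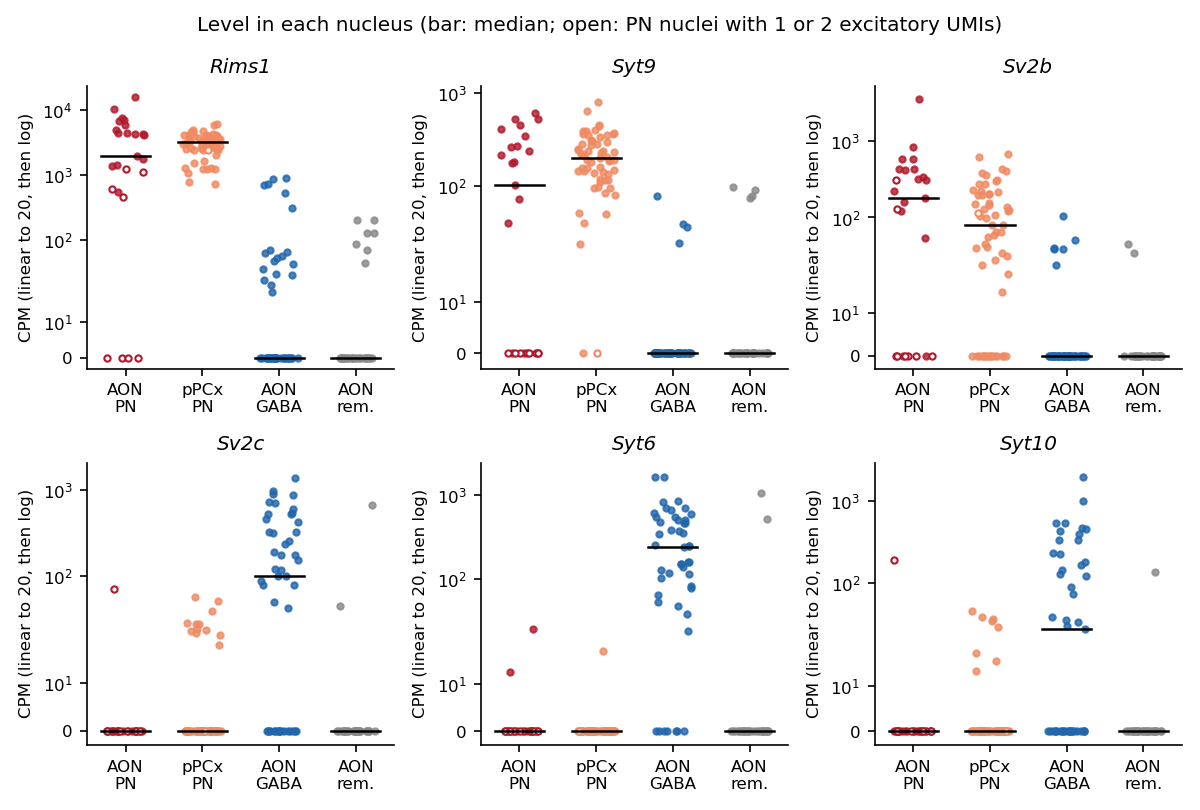
Level of 6 members in every nucleus of the 4 classes, in CPM on an axis that is linear to 20 and logarithmic above, with the class median as a bar and PNs with 1 or 2 excitatory UMIs as open points. *Rims1*, *Syt9* and *Sv2b* are seen in most PNs, against 19, 4 and 6 of 47 GABAergic nuclei, and *Sv2c*, *Syt6* and *Syt10* in 30, 40 and 24 of 47 GABAergic nuclei and few PNs.

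Among the SNARE and complexin genes, *Cplx2* was lower in both groups of PNs and *Snap25* was close in all 3 neuronal classes. *Snap25*, the plasma membrane SNARE, was found in all 59 pPCx PNs and all 47 GABAergic nuclei, at medians of 1100 and 1311 CPM, and its class levels of 1385, 1146 and 1595 CPM lay within 1.5-fold. *Stx1a* was at 26, 42.5 and 18.1 CPM, and the vesicle SNARE *Vamp2* at 33.1, 27.9 and 49.6 CPM. *Vamp1* took 44.8% of the *Vamp1* and *Vamp2* UMIs in AON PNs (32.6% to 57.4%) and 18.2% in GABAergic nuclei (10.3% to 28.6%), from 67 and 77 UMIs. It was 2.44-fold higher in AON PNs (1.25 to 4.98), but 15 of its 30 UMIs lay in the deepest nucleus, without which the log2 ratio went from 1.26 to 0.69. *Cplx1* was at 68, 29.2 and 64.5 CPM, 2.21-fold lower in pPCx PNs than in GABAergic nuclei (1.58 to 3.09). *Cplx2*, the other main forebrain complexin, had 42 UMIs in 17 of 47 GABAergic nuclei, 2 UMIs in AON PNs and 1 UMI in pPCx PNs, and took 33.6% of complexin UMIs in GABAergic nuclei (25.4% to 42.6%) against 2.47% and 1.43% in the groups of PNs.

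The GABAergic nuclei were next set against the 30 remaining nuclei of the same library, as a measure of how far these genes separate neurons from other cells. Of 31 members compared, 22 were at least 2-fold higher in GABAergic nuclei (18.1% of all 8926 genes) and 1 at least 2-fold lower (21.1% of all genes). The median log2 ratio was 1.83, beside -0.11 over all genes. *Syt1* was at 3394 CPM against 62.5 CPM, a 54.3-fold difference (38 to 80.6), and *Snap25* at 1595 against 121 CPM, 13.2-fold (10.2 to 17.4). *Rims2*, 2.5-fold higher (2.12 to 2.97), turned to a log2 ratio of -0.21 when PNs needed 3 or more excitatory UMIs and the others joined the remaining class. Under that setting *Syt1* went from a log2 ratio of 5.74 to 4.81 and *Snap25* from 3.71 to 2.69, and with equal weight per nucleus they went to 4.61 and 2.42. The calls of *Rims1*, *Syt7* and *Stx1a* were lost when PNs needed 3 or more excitatory UMIs, at 0.86, 0.78 and 0.87. Equal weight per nucleus lost that of *Syt7* too, at 0.77. All 7 markers of the GABAergic list had UMIs in the remaining nuclei, where the list summed to 775 CPM against 5253 CPM in GABAergic nuclei, and its part in the values was not tested. *Vamp2* and *Pclo* differed little, at 49.6 against 45.9 CPM and 267 against 177 CPM. The 1 member lower in GABAergic nuclei was *Cadps2*, at 22.8 against 379 CPM (16.6-fold, 11.2 to 25.5). Of its 182 UMIs in the remaining nuclei, 174 lay in the 17 nuclei with astrocyte markers, each of which had at least 1, at 666 CPM, against 34 CPM in the 8 nuclei with oligodendrocyte markers. *Cadps2*, the second CAPS gene, thus took 69.5% of the family's UMIs there (63.5% to 75%), against 1.46% in GABAergic nuclei. *Syt11*, 1.99-fold (1.55 to 2.55) higher in the remaining nuclei, was spread more evenly, at 241 CPM with astrocyte markers and 272 CPM with oligodendrocyte markers.

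Projection neurons labelled from the 2 sites lay within 2-fold in most release genes compared, though members were called higher in pPCx PNs more often than all genes. Of 33 members compared, 7 or 21.2% were at least 2-fold higher in pPCx PNs (9.82% of all 11172 genes) and 2 or 6.06% lower (6.66% of all genes). The median log2 ratio was -0.04, beside 0.06 over all genes. The difference between libraries and that between sites cannot be told apart here. The higher members were *Syt5*, *Syt12*, *Syt16*, *Syt17*, *Doc2b*, *Cadps2* and *Rph3a*, and the lower ones *Cplx1* and *Sv2b*. *Doc2b*, a high-affinity sensor of spontaneous and asynchronous release, had 129 UMIs in 32 of 59 pPCx PNs and 0 UMIs in 25 AON PNs, at least 20.6-fold higher against a floor of 3 UMIs over the AON class. *Rph3a*, the Rab3 effector rabphilin, had 144 UMIs in 35 of 59 pPCx PNs and 14 UMIs in 4 of 25 AON PNs, 61.8 against 12.5 CPM (4.94-fold, 2.85 to 9.26). With equal weight per nucleus its log2 ratio went from 2.26 to 0.98, where 1 AON nucleus, with 2 UMIs of *Rph3a* among 3291, stood at 608 CPM. *Syt12*, with 36 and 8 UMIs, had an interval that included equal levels (2.16-fold, 0.99 to 5.38) and a log2 ratio of 0.97 with 3 or more excitatory UMIs, and *Syt17* rested on 21 and 2 UMIs. Both lower calls were lost when 1 AON nucleus was left out and all pPCx nuclei were kept. Leaving out the AON nucleus with most of the gene took *Sv2b* from a log2 ratio of -1.28 to -0.75 and *Cplx1* from -1.22 to -0.88. The pPCx PNs have such a nucleus too, without which 310 of their 413 *Sv2b* UMIs are left, and leaving out both was not tested. *Syt9*, at 244 against 252 CPM, was among the closest (1.03-fold lower in pPCx PNs, 0.89 to 1.2).

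The pPCx PNs are themselves of 2 kinds by *Ebf1* and *Cntn6*, a transcription factor and an adhesion molecule. At 1000 CPM of both genes together, 37 of 59 were high and 22 low, and 1 nucleus lay within 2-fold of that line. The study lists *Ebf1*, *Cntn6* and *Doc2b* among the genes specific to its mitral type M1. A difference in *Doc2b* on this split is therefore not independent of that list. A list of 7 M1 markers, with *Ebf1* and *Cntn6* among them, stood at 6986 CPM in high and 191 CPM in low nuclei. The study's own classifiers, however, placed most PNs of its pPCx library in mitral type M2 and few in M1. The high nuclei are therefore not equated with M1 here. Of the 25 AON PNs, 1 was high, at 1096 CPM, with 0 UMIs of *Doc2b* and 3 of *Rph3a* among its 76634. Of 32 members compared between the high and low nuclei, 5 were at least 2-fold higher in the high nuclei (10.2% of all 9686 genes) and 2 lower (5.58% of all genes). Their median log2 ratio was -0.07, and that of all genes 0.11. *Doc2b* had 128 UMIs in 31 of 37 high nuclei, with a median of 86.7 CPM and a highest nucleus of 227 CPM, and 1 UMI in 22 low nuclei, a ratio of 101-fold (17.7 to 4005) that rests on that UMI. *Rph3a* had 141 UMIs in 32 of 37 high nuclei, with a median of 104 CPM, and 3 UMIs in 3 of 22 low nuclei, a ratio of 36.9-fold (12.4 to 181). The 2 genes were found together in 27 of 37 high nuclei and 0 of 22 low nuclei. Of the UMIs of the pPCx PNs, 128 of 129 for *Doc2b* and 141 of 144 for *Rph3a* thus lay in the high nuclei, and the low nuclei stood at 0.98 and 2.93 CPM beside 0 and 12.5 CPM in AON PNs. Thinned to 3000 UMIs, 24.3% of high and 0% of low nuclei kept a UMI of *Doc2b*, and 18.9% and 0% one of *Rph3a*.

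*Syt16* was 2.52-fold (1.87 to 3.42) higher in the high nuclei, at 147 against 58.5 CPM, *Syt5* 2.32-fold (1.4 to 4.01) and *Syt17* 4.72-fold (1.38 to 25). With equal weight per nucleus their log2 ratios went to 0.91, 0.79 and 0.5, each under the 2-fold line. Thus 2 of the 5 calls were left, those of *Doc2b* and *Rph3a*. At that weight 2 of 32 members were at least 2-fold higher in high nuclei, beside 11% of all genes. *Sv2b* went the other way, at 76 CPM in high nuclei (22 of 37) and 306 CPM in low nuclei (21 of 22), 4.03-fold lower (3.21 to 5.11), beside 430 CPM in AON PNs. Its share of Sv2 UMIs was 49.3% in high nuclei (42.1% to 56.4%) and 84.6% in low nuclei (80.6% to 88.2%), the latter overlapping the 84.4% of AON PNs. *Cplx1* was at 12.3 and 50.7 CPM, 4.13-fold lower in high nuclei (2.32 to 7.76), beside 68 CPM in AON PNs. In the high nuclei *Sv2a* was as common as *Sv2b*, with 47.3% of the family's UMIs, and *Sv2c* did not take its place, with 3.48%. The astrocyte marker list (5 of 6 with UMIs in high nuclei, *Gfap* at 0) stood at 299 CPM in high and 89.8 CPM in low nuclei, and the immature neuron list (3 of 4, *Tubb3* at 0) at 145 and 52.7 CPM, the same direction as *Doc2b* and *Rph3a*. The oligodendrocyte precursor list (1 of 3, *Pdgfra* and *Cspg4* at 0) stood at 413 and 55.6 CPM, all of it *Vcan*. The part of these lists in the values was not tested.

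**Figure D5:**
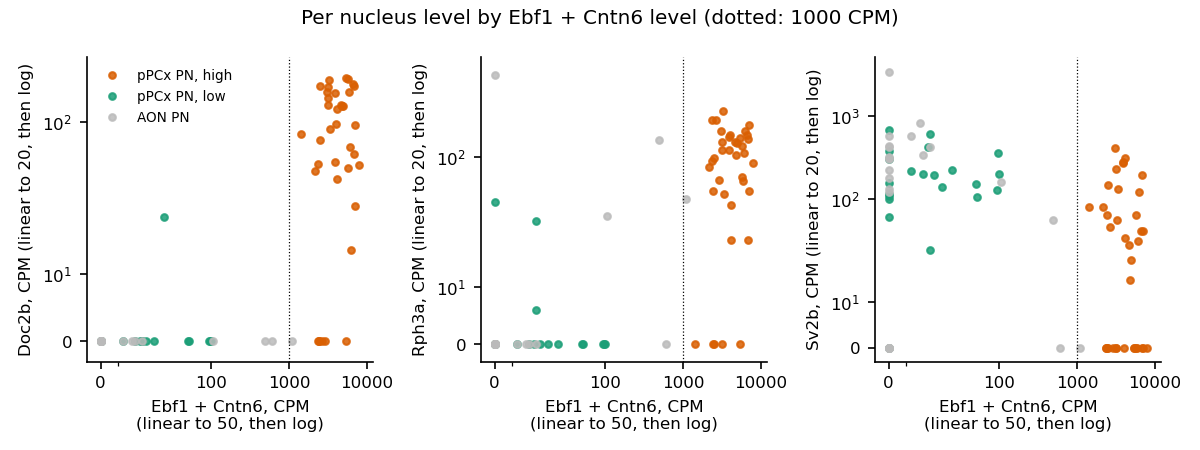
Level of *Doc2b*, *Rph3a* and *Sv2b* in each pPCx PN (orange, *Ebf1* and *Cntn6* high; green, low) and AON PN (grey) against the summed level of *Ebf1* and *Cntn6*, in CPM on axes that are linear near 0 and logarithmic above, with 1000 CPM dotted. *Doc2b* and *Rph3a* are seen in 31 and 32 of 37 high nuclei, and *Sv2b* in 21 of 22 low nuclei.

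For the other release genes, 59 further genes of vesicle traffic and fusion were taken as a list of which 50 could be compared between AON PNs and GABAergic nuclei. Of these 6 were at least 2-fold higher in PNs (15.2% of all genes) and 11 lower (16.1%), with a median log2 ratio of -0.18. In the pPCx comparison 10 of 52 were higher (17.8% of all genes) and 11 lower (14.1%). *Rab3b*, a vesicle GTPase and partner of RIM and rabphilin, was far higher in PNs in both comparisons, at 194 and 188 CPM against 10.2 CPM (19-fold, 10.9 to 36.2, and 18.4-fold, 10.6 to 34.8). *Synpr*, the vesicle protein synaptoporin, was at 10.7 and 12.5 CPM in PNs and 1020 CPM in GABAergic nuclei, 94.9-fold (54.2 to 184) and 81.9-fold (56.7 to 123) lower. *Stxbp6* (amisyn), a SNARE binding protein, was at 15.2 and 2.15 CPM against 682 CPM. Between high and low pPCx PNs, 2 of 50 were higher (10.2% of all genes) and 4 lower (5.58%), among them *Lin7a*, a scaffold component, with 20 and 297 UMIs (18.9-fold lower, 12 to 31.4).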

How the data were processed

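Nuclei had been sorted for the green reporter and a DNA dye, and libraries made with the 10x Chromium 3′ v3.1 kit. The authors deposited raw counts of UMIs per gene and nucleus from Cell Ranger (software version 3.1.0 in the matrix header), in which a molecule is counted once. The genome build and whether reads in introns were counted are not given in the sources used here, although the processing notes list only human builds. Gene IDs were matched to GENCODE M21 of GRCm38 (30934 of 31053, and all 39 members). In that annotation 0 members share exon bases with another listed gene on the same strand and 8 do on the other strand. The kit marks strand, but the setting used in counting is not given in the sources used here, and values of genes that overlap or resemble each other are uncertain.

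The study's filter of 1000 or more genes was applied, and no nucleus exceeded 5% mitochondrial UMIs (highest 0.93%). Totals were 2963064 UMIs (AON) and 2412067 UMIs (pPCx). UMIs were summed per class and scaled to CPM, with exact Poisson 95% intervals. Log2 ratios had 0.5 UMI added to each sum, folds have exact conditional binomial intervals, and shares have Clopper-Pearson intervals. All of these cover counting error only, since nuclei of 1 library are not replicates. A fold against 0 UMIs was computed against a floor of 3 UMIs over the class. Shares of nuclei with a UMI were also taken after thinning each nucleus to 3000 UMIs, which left out 1 remaining nucleus. Doublets were not called, since the nuclei are too few. The functions were tested on simulated counts. Software was Python 3.11.15, numpy 2.4.6, scipy 1.17.1, pandas 2.3.3 and matplotlib 3.10.9.

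The members, the classes, the further gene lists and the genes named were chosen with earlier results of these data known. Named genes were all members at least 2-fold different, those within 1.5-fold, and further release genes at 4-fold or more, of which the widest are given. Alternatives were median-ratio scaling, no minimum of UMIs, 5 UMIs added, 1500 or more genes, 3 or more excitatory UMIs, equal weight per nucleus, leaving out nuclei over 3 times the median depth and thinning to 6000 UMIs. A further alternative was added after seeing the data, in which the nucleus with most UMIs of the gene was left out of the class with the higher level.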

Additional observations from a re-analysis of the deposited data

Results flagged for a closer look

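Barcodes with fewer than 1000 genes enter no comparison above, but they hold UMIs of the release genes above the limit that a count of 0 allows. In the AON library 86 such barcodes, with a median of 775 UMIs, held 1335 UMIs of the members, or 14102 CPM, which is above the 10709 CPM of the GABAergic nuclei and below the 23497 CPM of the AON PNs. In the pPCx library 11 such barcodes held 308 UMIs of the members, or 28834 CPM, against 18190 CPM in pPCx PNs.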

How the results depend on the processing

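No paired analysis was possible because each site has 1 library and no replicate numbers. Over the 7 alternatives set at the start, the called members kept the direction of their log2 ratio in 147 of 147 values for AON PNs over GABAergic nuclei, 161 of 161 for pPCx PNs over GABAergic nuclei, 62 of 62 for pPCx over AON PNs, 160 of 161 for GABAergic over remaining nuclei and 48 of 48 for high over low nuclei, and 143, 158, 54, 149 and 45 of these stayed past 2-fold. These counts include the setting with no minimum of UMIs, which changes the genes compared and leaves each ratio as it was. For the called members that setting could move no value. The reversal was *Rims2* in GABAergic over remaining nuclei, -0.21 when PNs needed 3 or more excitatory UMIs, since the nucleus with 298 *Rims2* UMIs and 1 excitatory UMI then joins the remaining class. Members lower in pPCx than in AON PNs numbered 5 of 39 with no minimum of UMIs, where 16.5% of all genes were lower (2 in the text). They numbered 0 of 33 without the AON nucleus with most UMIs of the gene, all pPCx nuclei being kept. Members lower in GABAergic than in remaining nuclei (1 in the text) numbered 3 of 39 with no minimum (28.1% of all genes). They numbered 2 of 31 with 5 UMIs added (22.7% of all genes) and with 1500 or more genes (21.2%). The count was also 2 of 31 with equal weight per nucleus (20.7%) and without the deepest nuclei (21.4%). In high over low nuclei, 2 of 32 members were higher with equal weight per nucleus, where 11% of all genes were (5 in the text). With no minimum 5 of 39 were lower, where 14.2% of all genes were (2 in the text). Without the nucleus with most UMIs of the gene, *Syt17* reversed to 0.13 (AON PNs) and 2.17 (pPCx PNs) over GABAergic nuclei. Depth limits *Doc2a*, *Cplx3* and the ratios that rest on 1 to 3 UMIs.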
